A study of Mus musculus with 188 samples.

Results

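Notch ligands, receptors and targets were followed across single keratinocytes of the mouse interfollicular epidermis, 94 on each of 2 plates. The set holds 10 genes of the 49585 gene rows in the count table: the ligands Jag1, Jag2 and Dll1, the ligand-related Dlk2, the receptors Notch1, Notch2 and Notch3, the targets Hes1 and Nrarp, and Rbpj, which encodes the DNA-binding partner of the cut receptor. The rows were found by gene symbol, through their Ensembl identifiers. All 10 had a row. Each sample was 1 cell, and there was a single group. The mice carried the alleles Lrig1-CreERT2 and RosaYFP and were taken at postnatal day 20. The cells came from tail epidermis and were sorted as free of surface Cd34, positive for Itga6 and free of YFP, a gate aimed at basal cells between the hair follicles. In this strain the Lrig1 promoter drives the recombinase, so the gate leaves out cells with an active reporter. No label names an animal, so the cells were treated as 1 sample: values are given with their spread over cells, and no test, p-value or standard error was computed.

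In Notch signalling a ligand on one cell binds a receptor on its neighbour. The receptor is then cut, and its inner part enters the nucleus and joins RBPJ at target genes such as Hes1 and Nrarp. In the epidermis the pathway is known for its part in the step from the basal layer, whose cells make keratin 14 (Krt14), to the layers above, whose cells make keratin 10 (Krt10). The comparison asks in which of the sorted cells the ligands, receptors and targets were high, and how much Krt14 and Krt10 those cells held.

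Cells held between 79868 and 1093805 gene counts, with a median of 369991, and values are given as CPM, counts scaled to a total of 1000000 per cell with spike-in RNA left out. Well positions leave a trace in these libraries: genes with reads almost wholly in 1 well gave 30.7 stray reads per 10000 source reads in wells of the same lettered row, 14.99 in wells of the same column on the same plate and 1.84 in unrelated wells. The expected stray share of a cell was 3.85% to 63.3% of its counts, with a median of 11.9%. A gene is therefore called above stray reads in a cell where its count exceeded 3 times the expected stray count, although for sparse genes a single read can pass this rule. Krt14 was above stray reads in 84.04% of cells and Krt10 in 52 cells, 21 on plate 1 and 31 on plate 2. The label of basal keratinocytes held for most cells, since the 11 basal markers listed summed to between 36656 and 119517 CPM in the cells without Krt10 above stray reads. In the 52 cells with Krt10 the same sum was between 3699 and 92290 CPM. Cd34, Cd3e, Cd207, Sox10, Krt20 and Cdh5, which mark bulge cells, T cells, Langerhans cells, melanocytes, Merkel cells and endothelium, had no read in any cell. Other genes of these lists had reads in some cells: the highest sum in a cell was 602 CPM for the melanocyte list, 553 for fibroblasts, 411 for the hair follicle, 220.4 for endothelium, 161.6 for Merkel cells, 142.3 for Langerhans cells and 30.8 for T cells. A list of sebaceous genes reached 967 CPM.

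Among the canonical ligands, Jag2 was the most abundant, also per kilobase, and Dll1 had the lowest median. Jag2 (ENSMUSG00000002799.5, chromosome 12 from 112907819 to 112929776, minus strand, GRCm38) encodes a transmembrane ligand and ranged from 0 to 1209 CPM, with a median of 81.8 and a mean of 131.9 ± 151.3 CPM (SD over all cells of both plates). It was above stray reads in 55.3% of cells. Jag1 (ENSMUSG00000027276.7, chromosome 2 from 137081456 to 137116644, minus strand), its close relative, ranged from 0 to 495 CPM, with a median of 28.5 and a mean of 55.9 ± 70.3 CPM, and was above stray reads in 52.1% of cells. Dll1 (ENSMUSG00000014773.13, chromosome 17 from 15367354 to 15376872, minus strand), a ligand of the Delta type, had a median of only 4.82 CPM but reached 414 CPM, with a mean of 37.6 ± 79.9 CPM. It was above stray reads in 27.7% of cells and had no read in 46 cells. Both Jagged ligands were thus above stray reads in over 50% of cells, and Dll1 in fewer.

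Dlk2 (ENSMUSG00000047428.14, chromosome 17 from 46297421 to 46303271, plus strand) encodes an EGF-repeat protein related to Delta that lacks the part with which canonical ligands activate the receptor. It ranged from 0 to 667 CPM, with a median of 58.6 and a mean of 125.6 ± 152.5 CPM, and was above stray reads in 95 cells. The gene overlaps Abcc10 on the other strand, and every other member except Jag1 and Hes1 also overlaps at least 1 annotated gene. Whether the counting used strand is not given in the sources used here, so reads of such partners cannot be told apart.

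Notch1 was the most abundant receptor transcript, also per kilobase. Notch1 (ENSMUSG00000026923.15, chromosome 2 from 26457903 to 26516663, minus strand) ranged from 0 to 876 CPM, with a median of 126.5 and a mean of 163.6 ± 149.98 CPM, and was above stray reads in 71.3% of cells. Notch2 (ENSMUSG00000027878.11, chromosome 3 from 98013527 to 98150361, plus strand) ranged from 0 to 208 CPM, with a median of 22.6 and a mean of 38.6 ± 43.7 CPM, and was above stray reads in 53.7% of cells. Notch3 (ENSMUSG00000038146.7, chromosome 17 from 32120820 to 32166852, minus strand) had a read in only 26.6% of cells, a highest value of 107.6 CPM and 421 reads in all. In the summed receptor CPM, which is not scaled to length, Notch1 made up 78.6%, Notch2 18.6% and Notch3 2.79%.

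Both targets varied widely between cells. Hes1 (ENSMUSG00000022528.7, chromosome 16 from 30064384 to 30067796, plus strand), a transcriptional repressor induced by Notch in many tissues, ranged from 0 to 360 CPM, with a median of 21.6 and a mean of 54.1 ± 71.6 CPM, and was above stray reads in 92 cells. Nrarp (ENSMUSG00000078202.3, chromosome 2 from 25180758 to 25183339, plus strand), a feedback inhibitor that binds the Notch and RBPJ complex, had a median of 5.32 and a highest value of 292 CPM, with a mean of 26.3 ± 44.1 CPM, and was above stray reads in 75 cells. Rbpj (ENSMUSG00000039191.12, chromosome 5 from 53466152 to 53657362, plus strand) had a median of 1.61, a highest value of 176.3 and a mean of 11.9 ± 27.3 CPM. Its 916 reads fell in 52.7% of cells, which left 89 cells with none.

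Levels of different genes were compared per kilobase of exon, since full-length cDNA gives long transcripts more fragments. On that scale Dlk2 stood highest, with 60.1 CPM per kilobase on plate 1 and 58.8 on plate 2, followed by Hes1 with 24.3 and 28.9 and by Jag2 with 18.1 and 19.7. Notch1 (10.5 and 12.5), Nrarp (8.76 and 11.6), Jag1 (9.22 and 9.97) and Dll1 (7.82 and 10.0) formed a group whose plate values overlapped, so their order is not resolved. Notch2 followed with 3.51 and 3.65, and Rbpj (0.904 and 0.969) and Notch3 (0.444 and 0.994) were lowest and overlapped. Exon length was the union over annotated transcripts, which lowers the value of genes with rare long transcripts such as Rbpj, at 12.75 kilobases.

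**Figure D1:**
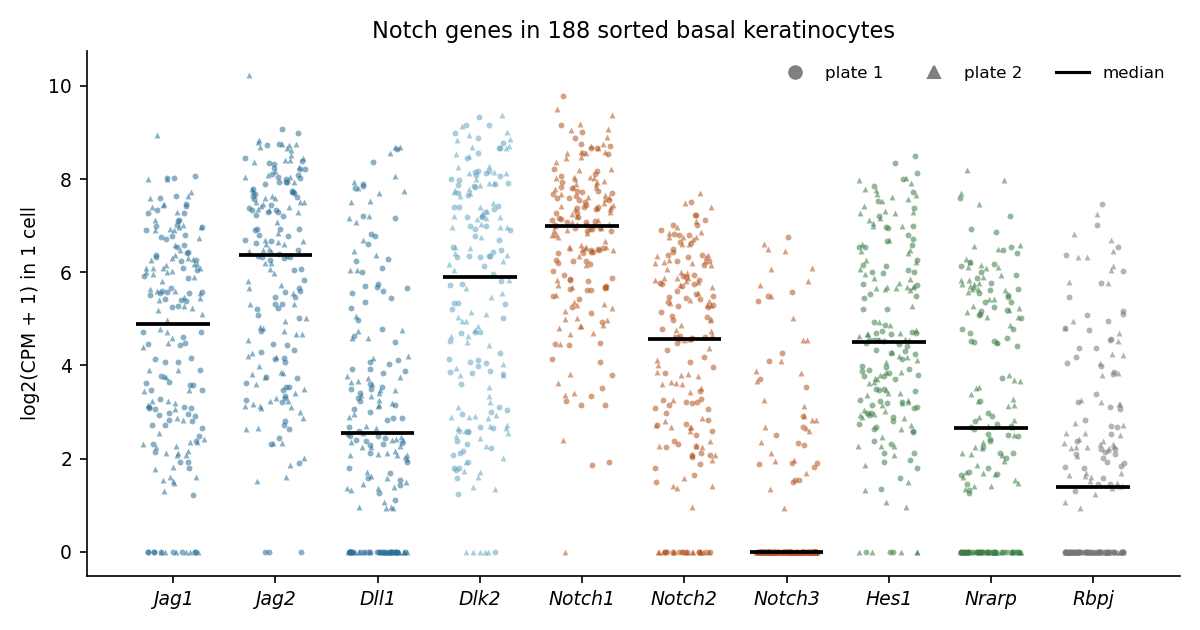
Level of each gene in each cell as log2(CPM + 1), with circles for plate 1, triangles for plate 2 and a black line at the median of all cells (CPM is not scaled to gene length). Notch1, Jag2 and Dlk2 have medians of 126.5, 81.8 and 58.6 CPM, while Notch3 has a read in 26.6% of cells.

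The upstream sequences of 3 members are shown here because these genes stood at opposite ends of the keratin comparison: Dlk2 was low, and Notch3 and Nrarp high, in cells with Krt10. They are the bases before the annotated start, upstream of every annotated exon of the gene, 5′ to 3′ on the strand of the gene, from RefSeq on GRCm38.p6. The positions are chr17:46297233-46297420 on the plus strand for Dlk2, chr17:32166891-32167140 on the minus strand for Notch3 and chr2:25180508-25180757 on the plus strand for Nrarp. Capitals mark the only match to either motif searched, an E-box.
Dlk2: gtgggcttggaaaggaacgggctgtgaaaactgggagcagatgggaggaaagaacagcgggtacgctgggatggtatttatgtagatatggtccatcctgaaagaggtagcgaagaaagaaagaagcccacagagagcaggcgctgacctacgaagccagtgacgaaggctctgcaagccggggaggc
Notch3: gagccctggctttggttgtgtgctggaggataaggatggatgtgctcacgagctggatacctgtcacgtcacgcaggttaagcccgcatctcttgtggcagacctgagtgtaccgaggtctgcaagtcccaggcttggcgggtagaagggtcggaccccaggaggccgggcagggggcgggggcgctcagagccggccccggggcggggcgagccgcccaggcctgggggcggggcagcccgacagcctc
Nrarp: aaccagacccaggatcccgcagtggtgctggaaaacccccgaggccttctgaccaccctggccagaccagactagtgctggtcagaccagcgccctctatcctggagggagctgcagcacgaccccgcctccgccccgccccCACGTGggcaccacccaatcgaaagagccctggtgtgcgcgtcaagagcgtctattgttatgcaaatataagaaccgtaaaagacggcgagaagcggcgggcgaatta

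Windows of 300 bases, 250 before and 50 after the start, were searched on both strands for TGGGAA, the core of the site read by RBPJ, and for CACGTG, an E-box read by many basic helix-loop-helix factors. Entries were found for 9 of the 10 members (all but Hes1), 12 in all. TGGGAA was found in both entries of Rbpj and in no other, against 25.6% of all 32851 windows. CACGTG was found only in Nrarp, in capitals in the printed sequence, against 7.15% of all windows. A match is a run of letters and not a measured site.

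The clearest pattern was that Jag2, Dll1 and Dlk2 were low, and Notch3 and Nrarp high, in the 52 cells with Krt10 above stray reads, while the means of Jag1, Notch1, Hes1 and Rbpj were closer. This division of the cells was chosen after their values were seen. These 52 cells also held less Krt14, with a median of 15734 CPM (lowest 1630, highest 54109) against 36794 CPM (17614 to 72198) in the others. A gene is counted here when its mean CPM (plus 1) differed at least 1.5-fold in the same direction on both plates. By that rule 3 of the 10 members were lower, against 10.1% of the 9344 genes with 10 CPM in at least 10% of cells (the genes tested), and 2 were higher, against 4.39%. The median log2 difference over all genes tested was -0.11, and over the members -0.21.

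Dlk2 was low in cells with Krt10. In those cells it ranged from 0 to 124.002 CPM with a median of 6.38, and in the other cells from 0 to 667 CPM with a median of 126.3. The means were 15.9 and 167.6 CPM, 10.5-fold lower with Krt10, and 8.63-fold and 12.5-fold lower on the 2 plates. Dlk2 was above stray reads in 4 of the 52 cells and in 66.9% of the others. The ranges overlap, since some cells without Krt10 also had little Dlk2.

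Jag2 followed the same pattern. It ranged from 0 to 367 CPM with a median of 10.6 in cells with Krt10, and from 0 to 1209 CPM with a median of 139.5 in the others. The means were 35.4 and 168.8 CPM, 4.77-fold lower with Krt10, with 3.04-fold on plate 1 and 7.32-fold on plate 2. Without the single cell with Krt10 that had the most Jag2, the value was 5.84-fold overall and 12.9-fold on plate 2. It was above stray reads in 15.4% of the 52 cells and 70.6% of the others. Dll1, sparse in both sets, had medians of 2.30 and 8.71 CPM and means of 10.4 and 47.99 CPM, 4.62-fold lower with Krt10, and was above stray reads in 4 and 48 cells. A single cell carried much of the first mean: without the highest cell with Krt10, at 265 CPM, that mean was 5.40 CPM, 8.88-fold lower. Left out on each plate in turn, the highest cell with Krt10 moved Dll1 from 5.46-fold to 13.6-fold lower on plate 1 and from 4.57-fold to 14.2-fold lower on plate 2. Jag1, the other Jagged ligand, had means of 50.9 and 57.8 CPM and medians of 13.3 and 36.7 CPM, and was not counted.

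Notch3 and Nrarp stood on the opposite side. Notch3 ranged from 0 to 107.6 CPM with a mean of 16.7 in the 52 cells with Krt10, and from 0 to 89.6 CPM with a mean of 1.66 in the others. That is 10.0-fold higher with Krt10, with 8.96-fold and 9.59-fold on the 2 plates, and it rests on few reads in few cells. Without the highest of the other cells it was 16.4-fold, and 16.6-fold and 29.3-fold on the plates. Without the highest cell with Krt10 it was 8.94-fold overall and 5.25-fold on plate 1. The plates differed in the share of cells. Notch3 was above stray reads in 6 of 21 cells with Krt10 and 12 of 73 others on plate 1. On plate 2 these counts were 21 of 31 and 7 of 63. Nrarp ranged from 0 to 292 CPM with a median of 47.2 in cells with Krt10, and from 0 to 193.1 CPM with a median of 2.59 in the others. Its means were 54.6 and 15.5 CPM, 3.51-fold higher, with 2.18-fold on plate 1 and 5.08-fold on plate 2. Nrarp was above stray reads in 71.2% of the 52 cells and 27.9% of the others, and the plates gave close shares.

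The other members overlapped widely. Notch1 had means of 149.6 and 168.95 CPM and was above stray reads in 39 of the 52 cells and 69.9% of the others. Hes1 had means of 61.2 and 51.4 CPM, with plate 1 higher in cells with Krt10, past the fold, and plate 2 slightly lower. Rbpj had 10.7 and 12.4 CPM. Notch2 had 48.2 and 34.995 CPM and reached the fold on plate 2 only. Hes1, although a target like Nrarp, was not counted by this rule.

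Depth differed between the sets, with median totals of 405831 counts in cells with Krt10 and 346008 in the others, so shares were also taken with every cell thinned to 75000 counts, which left out no cell. At that depth Nrarp had a read in 73.1% of the 52 cells and 34.6% of the others, and Notch3 in 36.5% and 7.35%. Dlk2 had a read in 51.9% and 86.8%, Jag2 in 67.3% and 94.1%, and Dll1 in 21.2% and 50.7%, where stray reads count as reads. The thinned means kept the direction of all 5 genes. Scaled per spike-in read instead, the log2 difference in mean was -1.95 for Jag2, -1.55 for Dll1, -2.90 for Dlk2, 2.94 for Notch3 and 1.96 for Nrarp, while the median of all genes moved from -0.11 to 0.14. Under that scaling Jag1, Notch1 and Rbpj changed sign, from -0.18, -0.17 and -0.19 to 0.14, 0.09 and 0.01.

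The 5 genes were also compared cell by cell, a grouping made after their values were seen. The stray rule is a different cut for each gene. Its median expected stray level was 15.9 CPM for Jag2, 15.5 for Dlk2, 4.45 for Dll1, 3.17 for Nrarp and 0.59 for Notch3. A cell counted as without Jag2 or Dlk2 can therefore hold more CPM of it than a cell counted as having Notch3 holds of Notch3. Among the cells without Krt10 above stray reads, 56.6% (77 cells) had Jag2, Dll1 or Dlk2 above stray reads without Notch3 or Nrarp, 5.15% (7) had the reverse, 33.8% (46) had genes of both sets and 6 cells had neither. Of these cells with Notch3 or Nrarp, 46 also had Jag2, Dll1 or Dlk2 and 7 did not. Of those without Notch3 or Nrarp, 77 had them and 6 did not, so they were common either way. Among the 52 cells with Krt10, 1 had only the former, 36 only Notch3 or Nrarp, 12 both and 3 neither. Cells with all of Jag2, Dll1 and Dlk2 made up 20.6% (28) of the cells without Krt10 and 0 of the 52, a count of 0 that allows a share of up to 5.77%. Singly, Jag2, Dll1 and Dlk2 were above stray reads in only 8, 4 and 4 of the 52. The count of 0 therefore adds nothing to those shares.

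Markers differed along the same division. Of the 11 basal markers 9 were lower in cells with Krt10, among them Itga3 and Itgb4, and 8 of the 9 other early differentiation markers were higher, among them Krt1. Of 8 tested G2/M genes 6 were lower, and 5 of 8 S phase genes, beside the low Jag2, Dll1 and Dlk2 of these cells. Over all genes tested, 10.1% were lower and 4.39% higher in this division. Mgst1, of the sebaceous list, was also higher. The summed Langerhans list stayed between 0 and 1.33 CPM in these cells and the T cell list between 0 and 2.82 CPM. The highest sums in these cells were 169.2 CPM for the melanocyte list, 106.45 for Merkel cells, 55.7 for endothelium, 215.9 for fibroblasts and 155.4 for the hair follicle. Their medians were 2.84 CPM for fibroblasts, 2.04 CPM for the hair follicle and 0 for the melanocyte, Merkel and endothelial lists. The sebaceous list had a median of 158.9 and a highest sum of 967 CPM in these cells, against 91.6 and 742 CPM in the others. The part of the cell cycle and of these other cell types in the differences was not tested.

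Within the 52 cells, Notch1 was higher where Krt14 was also above stray reads, and Notch2 and Notch3 where it was not. In 30 of them Krt14 was also above stray reads, with a mean of 29057 CPM, and in 22 it was not, with 6210 CPM. The median expected stray Krt14 over all cells was 3925 CPM, so these 22 cells are not shown to lack Krt14. Krt10 alone is used below where only Krt10 passed the stray rule. Krt10 itself averaged 8285 and 24978 CPM in the same cells. The division was chosen after the values were seen. Of the 10 members 3 were lower in the 22 cells without Krt14 above stray reads, against 13.9% of the genes tested, and 2 were higher, against 5.62%. The median log2 difference was -0.39 over the members and -0.19 over all genes tested.

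Notch1 was lower in the 22 cells where Krt10, but not Krt14, was above stray reads. Its mean was 81.5 ± 90.2 CPM there and 199.5 ± 146.2 CPM in the 30 cells with both keratins (SD over cells), and it was above stray reads in 12 of 22 and 27 of 30. Notch2 was higher, with 67.97 ± 50.7 against 33.7 ± 43.04 CPM, and so was Notch3, with 28.3 ± 31.4 against 8.15 ± 20.3 CPM. Notch3 was above stray reads in 16 of 22 and 11 of 30 cells. On plate 1 Notch3 was above stray reads in 1 of 13 cells with both keratins and 5 of 8 with Krt10 alone, and on plate 2 in 10 of 17 and 11 of 14. The ratio of its means was 22.9 on plate 1 and 2.10 on plate 2. These receptor differences had the same direction on both plates, and the spreads overlapped. Per spike-in read the log2 differences were -1.18 for Notch1, 1.01 for Notch2 and 1.89 for Notch3, while the median of all genes moved from -0.19 to -0.38.

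Jag2 and Dlk2 had lower means with Krt10 alone, and Nrarp was not counted. Jag2 had a mean of 52.2 CPM with both keratins and 12.5 CPM with Krt10 alone, and was above stray reads in 8 of 30 and 0 of 22 cells, where a count of 0 allows up to 13.6%. Dlk2 had 20.3 and 9.93 CPM, above stray reads in 4 and 0 cells. The medians were closer, 14.05 and 9.86 CPM for Jag2 and 6.45 and 5.84 CPM for Dlk2, beside median expected stray levels over all cells of 15.9 and 15.5 CPM, so the differences in mean lay in a few cells. Nrarp had 57.02 ± 65.98 CPM where both keratins were present, above stray reads in 22 of 30 cells, and 51.3 ± 53.3 CPM in 15 of 22 cells with Krt10 alone, and was lower on plate 1 only. Hes1 had 64.4 and 56.8 CPM and opposite directions on the 2 plates. Basal markers were also lower in the 22 cells, 6 of 10 tested, and 6 of 8 S phase genes, beside 13.9% of all genes tested.

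**Figure D2:**
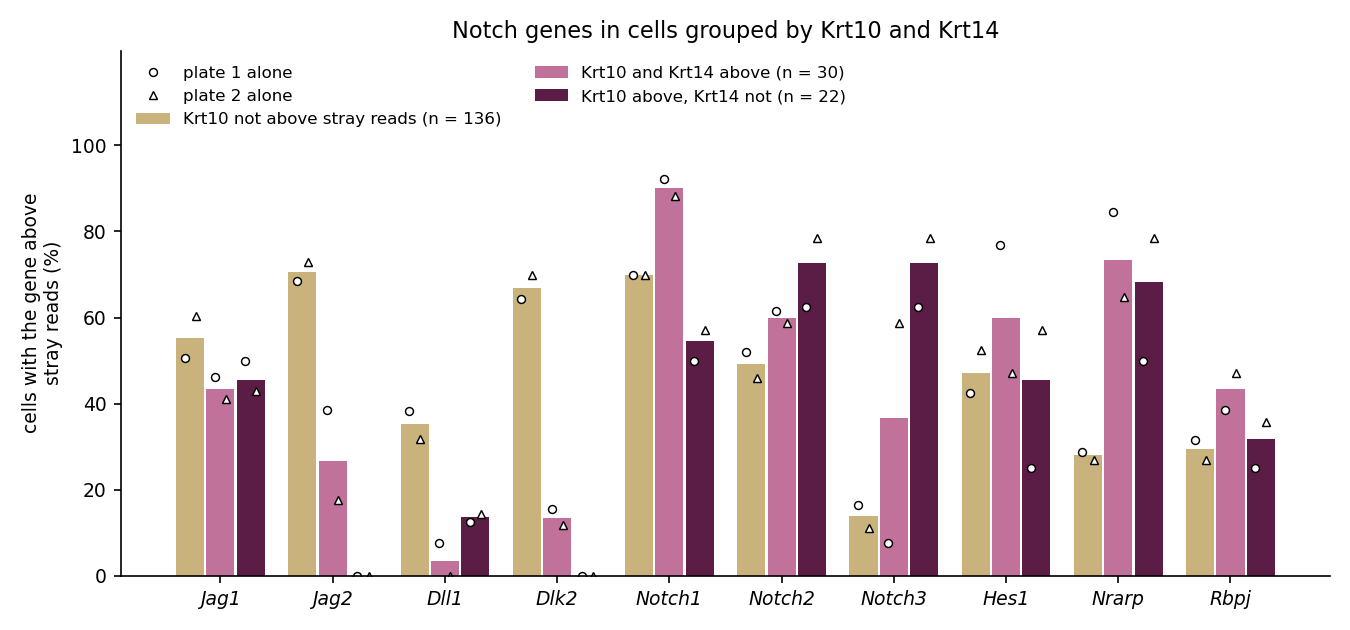
Percent of cells in which each gene was above stray reads, for the cells without Krt10 above stray reads, 30 cells with both keratins above them and 22 cells with Krt10 alone above them. Open circles and triangles give plate 1 and plate 2. Jag2 goes from 70.6% to 26.7% to 0%, Notch3 from 13.97% to 36.7% to 72.7%, and Nrarp is at 27.9%, 73.3% and 68.2%. Notch3 alone is at 16.4%, 7.69% and 62.5% on plate 1 and at 11.1%, 58.8% and 78.6% on plate 2.

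**Figure D3:**
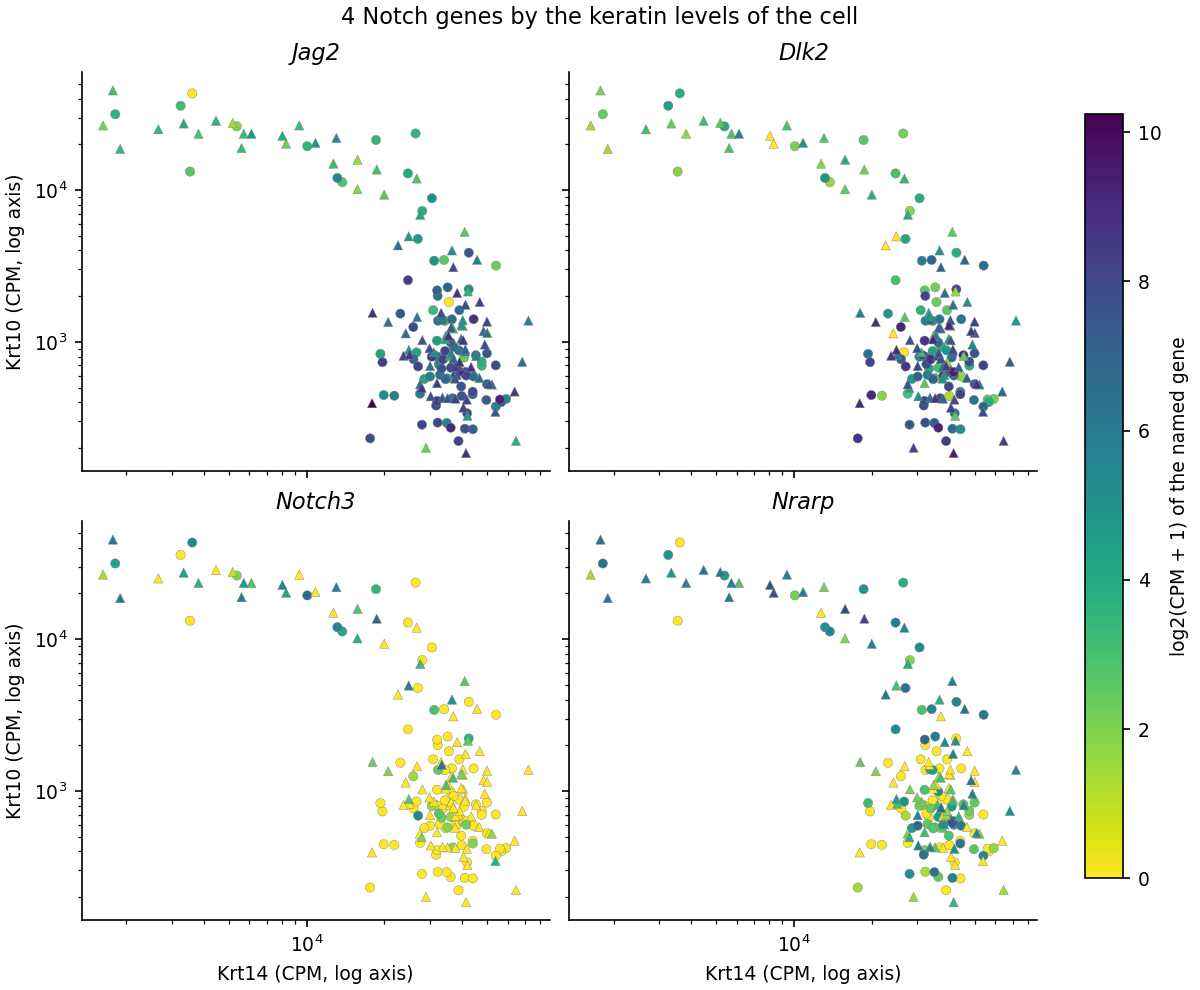
Krt10 against Krt14 in CPM on log axes, 1 point per cell (circles plate 1, triangles plate 2), coloured by log2(CPM + 1) of Jag2, Dlk2, Notch3 or Nrarp. Cells high in Jag2 and Dlk2 gather at low Krt10, and cells with Notch3 reads gather at high Krt10.

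Cells were also ordered by Krt10 and divided into 4 sets of 47. From the lowest to the highest set, Jag2 had means of 214.6, 153.1, 137.6 and 22.2 CPM. Dlk2 had 181.1, 160.97, 141.6 and 18.9 CPM, and Dll1 56.9, 53.7, 27.8 and 11.9 CPM. The largest step of Jag2 and Dlk2 lay between the third and the highest set, which holds 44 of the 52 cells with Krt10 above stray reads. Nrarp had 13.8, 23.1, 13.9 and 54.5 CPM and Notch3 0.574, 1.30, 3.05 and 18.3 CPM, with the same late step upward.

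Between the highest and the lowest Krt10 set, Jag2, Dll1 and Dlk2 were lower, against 12% of the genes tested, and Notch3 and Nrarp higher, against 6.7%. Between the highest and the lowest of 4 like sets by Krt14, Jag2, Dll1 and Dlk2 were higher, against 7.93%, and Notch3 was lower, against 6.92%. Jag2 averaged 162.3 and 86.8 CPM in those sets and Notch3 0.844 and 17.5 CPM. Nrarp had opposite directions on the 2 plates along Krt14. Median depth was 503608 counts in the lowest Krt10 set and 377328 in the highest, and Krt10 had a rank correlation of -0.26 with depth.

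Spearman's rho over all cells of both plates, which share plates, pools and depth differences, described the same relations cell by cell. A gene was counted as higher where rho reached 0.3 on plate 1 and also on plate 2, and as lower where it reached -0.3 on each. With Krt10, Jag2 (rho -0.56) and Dlk2 (-0.51) were counted as lower, against 0.471% of the genes tested, and no member was counted as higher, against 0.631%. Dll1 had -0.30, Notch3 0.42 and Nrarp 0.27, each past the limit on 1 plate only, and the remaining 5 members were between -0.05 and 0.12. With Krt14 no member was counted, against 0.268% of genes higher and 0.214% lower, and Jag2, Dlk2 and Notch3 had 0.38, 0.35 and -0.39. Among cells without Krt10 above stray reads these values were 0.04, -0.0034 and -0.13. The median rho with Krt10 was -0.02 over the members and -0.0046 over all genes.

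Both counted relations were weaker without the 52 cells. Among cells without Krt10 above stray reads, rho with Krt10 was -0.23 for Jag2 and -0.16 for Dlk2. Per spike-in read, rho over all cells was -0.36 for both, with neither past the limit on both plates. The expected stray Krt10 had a median of 578 CPM per cell, beside Krt10 medians of 421 and 738 CPM in the lowest and the next set, so the order of Krt10 among those cells cannot be told apart from stray reads.

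Between members, 1 of 45 pairs was counted. Jag2 and Dlk2 reached 0.41 over all cells (plate 1, 0.37, plate 2, 0.45), against 0.00707% of all gene pairs counted as higher. Without the cells with Krt10 above stray reads it was 0.11. No pair was counted as lower, against 0.00221% of all pairs. Jag2 and Notch3 had -0.34 over all cells (plate 1, -0.14, plate 2, -0.48), and Jag2 and Nrarp -0.28 (-0.18 and -0.37). Without the cells with Krt10 above stray reads these values were -0.05 and -0.06.

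Ligand and receptor transcripts met in the same cells. Jag2 and Notch1 were both above stray reads in 78 cells, Notch1 alone in 56, Jag2 alone in 26 and neither in 28, with a rho of 0.09. Jag1 and Notch1 shared 74 cells, with a rho of 0.14. The targets Hes1 and Nrarp had a rho of 0.14 with each other and were both above stray reads in 43 cells. Nrarp had 0.20 with Notch2 and -0.10 with Notch1, and Hes1 0.08 with Notch1. In counts this sparse such weak values, and the counts of shared cells beside them, carry no finding.

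**Figure D4:**
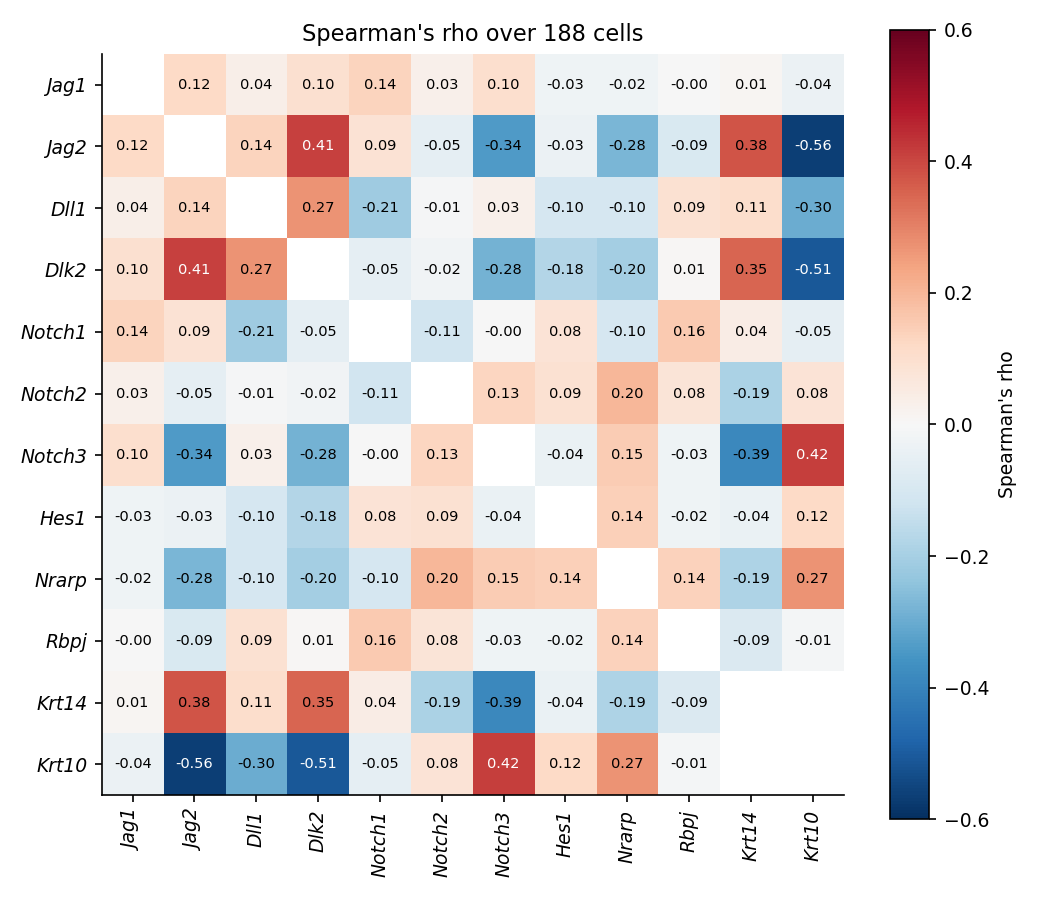
Spearman's rho over all cells for each pair of members and of each member with Krt14 and Krt10, from blue (negative) to red (positive). The Jag2 row holds 0.41 with Dlk2 and -0.56 with Krt10, and most other pairs lie near 0.

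Cells were also classed by summed level, as the 47 cells with the highest sum of Jag1, Jag2 and Dll1 (ligand-high), of Notch1, Notch2 and Notch3 (receptor-high) or of Hes1 and Nrarp (target-high). Each class is a range of a continuous score. The ligand-high limit fell between 329.0 and 331.7 CPM, with 18 cells within 10% of it. The receptor-high limit fell between 271.5 and 274.2 CPM, with 29 such cells, and the target-high limit between 122.8 and 124.96 CPM, with 8. Jag2 supplied 58.5% of the ligand sum, and Hes1 67.2% of the target sum.

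The classes overlapped in part. Of the 47 ligand-high cells 12 were receptor-high, 25.5% (95% exact binomial interval 13.9% to 40.3%), against 24.8% of the other cells. Ligand-high cells that were target-high numbered 8, 17.02% (7.65% to 30.8%), against 27.7% (20.5% to 35.8%) of the others, intervals that overlap. Receptor-high cells that were target-high numbered 13, 27.7% (15.6% to 42.6%), against 24.1%. The intervals cover counting error only. In all, 1 cell was in all 3 classes, 30 in exactly 2, 78 in exactly 1 and 79 in none. The sums had rho values of 0.0046 for ligands and receptors, -0.14 for ligands and targets, and 0.10 for receptors and targets.

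Ligand-high cells held less Krt10. Their Krt10 ranged from 185.4 to 18906 CPM with a median of 638, against 200.9 to 45289 CPM with a median of 1147 in the other cells. Krt10 was above stray reads in 3 of 47 ligand-high cells and in 49 of the others. Receptor-high cells had a median of 1375 CPM against 844, and 14 of 47 above stray reads against 38 of the others. Target-high cells had 1027 against 852 CPM, with 19 of 47 above stray reads against 33 of the others. So 6.38% of ligand-high cells, and 40.4% of target-high cells, held Krt10 beyond stray reads.

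The receptor-high and target-high medians were less firm than the ligand-high one. The receptor-high ratio of medians was 1.95 on plate 1 and 1.09 on plate 2, and the mean went the opposite way, 3719 against 5245 CPM. The target-high ratio was 0.95 on plate 1 and 1.41 on plate 2. The ligand-high ratio was 0.73 and 0.50, with means of 1172 against 6094 CPM. Most of these medians lie near the level that stray reads give.

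Krt14 varied little between classes. Its median was 37659 CPM in ligand-high cells against 33341 in the others, 33341 against 34871 in receptor-high cells and 34485 against 34348 in target-high cells. Krt14 was above stray reads in 91.5% of ligand-high cells, against 81.6% of the others. Median depth was 429798 counts in ligand-high cells and 346783 in the others, and 404086 to 406644 in the other classes.

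**Figure D5:**
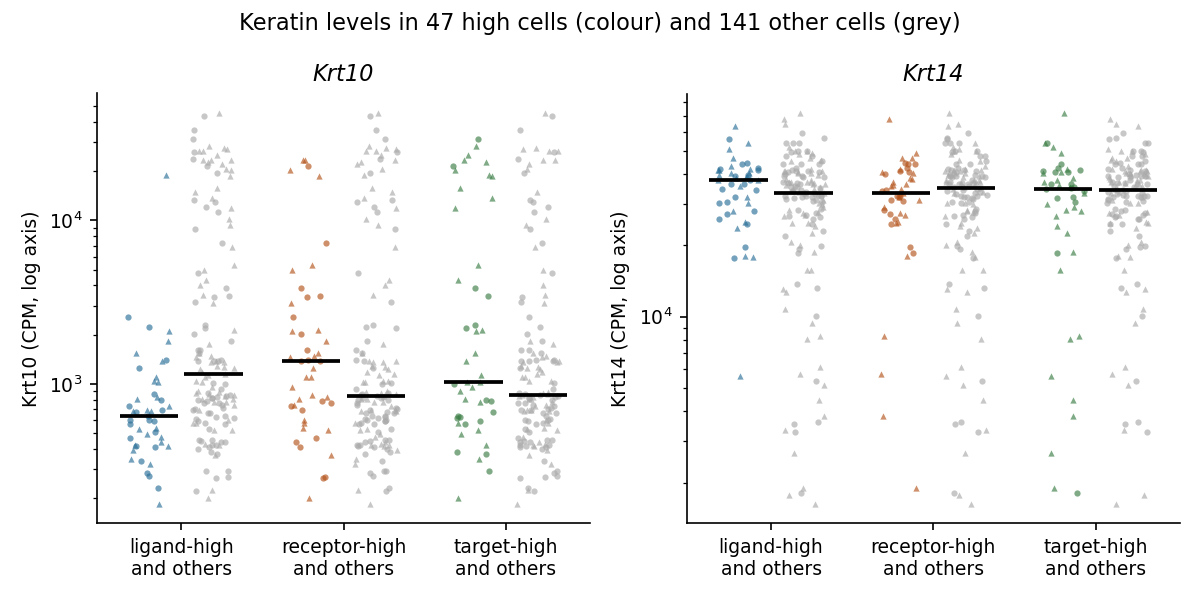
Krt10 and Krt14 in CPM (log axes) in the 47 cells of each class (colour) and the other cells (grey), with black lines at the medians; circles are plate 1 and triangles plate 2. Ligand-high cells gather at low Krt10 (median 638 against 1147 CPM), with 3 cells above stray reads.

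Of the 7 members outside the ligand sum, Nrarp was lower in ligand-high cells, at 13.6 ± 22.9 against 30.6 ± 48.5 CPM, against 4.51% of the genes tested. None was higher, against 3.47%. Dlk2, although outside the sum, had 176.97 against 108.5 CPM and reached 1.81-fold on plate 1 and 1.47-fold on plate 2. Of the 7 members outside the receptor sum none was counted, against 2.76% of genes higher and 4.41% lower, and of the 8 outside the target sum none, against 2.3% and 4.15%. In receptor-high cells Dlk2 had 84.4 against 139.4 CPM, a log2 difference of -0.40 on plate 1 and -1.001 on plate 2, and Dll1 16.5 against 44.6 CPM, with -0.35 and -2.52. The median log2 difference of the members was 0.03, 0.20 and -0.07 in the 3 classes, and of all genes -0.01, -0.02 and -0.05.

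With the classes formed again per spike-in read, the balance of genes turned, to 6.85% higher and 2.48% lower in ligand-high cells, 9.99% and 1.48% in receptor-high cells, and 5.7% and 1.96% in target-high cells. In the classes by CPM, early differentiation markers were lower in ligand-high cells, 8 of 10, beside 4.51% of all genes tested. Among them Krt1 had 959 against 3139 CPM. Lamb3, a laminin chain of the basement membrane, was the only basal marker of 11 counted, and it was higher, beside 3.47%. In target-high cells Krt1 and Dsg1b were higher, beside 2.3%. Of the G2/M list, 3 of 8 were lower in ligand-high and in receptor-high cells, beside 4.51% and 4.41%. Cenpa was lower in target-high cells, beside 4.15%.

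The genes most like each member were ranked by the smaller rho of the 2 plates. For Jag2 they were Itga3 (rho 0.50), Lamb3 (0.50), Fgfr2 (0.48), Col17a1 (0.51) and Agrn (0.41). For Dlk2 they were Lamb3 (0.52), Ftl1 (0.42), Tns1 (0.43), Cavin3 (0.42) and Wnt10a (0.43). In all, 24 genes reached 0.3 with Jag2 on both plates and 21 with Dlk2. For Dll1, Slitrk6 (0.38) and Ctnnal1 (0.38) did, and for Jag1, Notch1, Notch2, Hes1 and Nrarp no gene did. Genes near Nrarp included Gltp (0.32), Ralgps2 (0.25), Fabp5 (0.32) and Sh3rf2 (0.27).

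Of 57 further Notch genes listed, 37 passed the filter of 10 CPM in at least 10% of cells. Dll3, Dll4, Dlk1, Dner, Hes5, Hey1, Hey2 and Heyl had no read in any cell, and Notch4 a mean of 0.202 CPM. Adam10, which makes the first activating cut of the receptor, averaged 66.2 ± 71.6 CPM, and Ncstn, of the gamma-secretase that makes the second, 76.9 ± 93.2 CPM. Mib1, which drives uptake of bound ligand, averaged 68.1 ± 78.9 CPM, and Maml3, a coactivator of the complex, 50.6 ± 82.9 CPM. Nedd4, a ubiquitin ligase with many substrates, averaged 650 ± 329 CPM. Cutting and uptake genes were thus detected, and the Hey targets were not.

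With Krt10, 1 of the 37 tested pathway genes was counted as higher and 1 as lower, beside 0.631% and 0.471% of all genes tested. Cdkn1a, which encodes the cell cycle inhibitor p21 and is linked to Notch in keratinocytes, had a rho of 0.53, and Trp63, the basal transcription factor p63, had -0.46. Trp63 was also counted as higher with Krt14, at 0.36. Lfng, whose product adds sugars to Notch receptors, had -0.33 with Krt10 over all cells, but -0.15 on plate 2. The median rho of the 37 was -0.04.

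By fold, 2 of the 37 were higher in the 52 cells with Krt10 than in the others, among them Cdkn1a, and 6 were lower, Lfng, Fbxw7, Maml1, Maml3, Tle1 and Trp63, beside 4.39% and 10.1% of all genes tested. Fbxw7 marks the cut receptor for breakdown, and Tle1 is a corepressor used by HES proteins. In ligand-high cells Lfng, Mib2, Fbxw7, Ep300 and Tle1, 5 of the 37, were higher (beside 3.47% of all genes) and Cdkn1a lower (beside 4.51%). In receptor-high cells Spen was higher (beside 2.76%) and Maml2 lower (beside 4.41%), and in target-high cells none of the 37 was counted (beside 2.3% and 4.15%). Hes6, a relative of Hes1, averaged 39.3 ± 73.9 CPM and had a rho of 0.08 with Krt10.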

How the data were processed

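Smart-seq2 libraries of 188 single cells were analysed from the read counts per gene that the authors deposited. The tools listed are STAR 2.5.2b, HTSeq 0.6.0 and cutadapt 1.13, with build GRCm38, per the submitters' processing notes. Counts of the 92 spike-ins were left out, and 49326 of 49585 rows were matched to a symbol (GENCODE M21). CPM, plate by plate comparisons and rho were computed with Python 3.11.15, numpy 2.4.6, pandas 2.3.3 and scipy 1.17.1, and size factors with scran 1.30.0 in R 4.3.3. The genes tested had 10 CPM in at least 10% of cells. Stray reads were estimated from 50 genes with at least 100 reads in 1 well, and the rate of same-row wells also held across plates (31.7 per 10000). A pseudocount of 1 CPM was added before log2 ratios. Doublets were not called. Each sample is labelled as 1 cell, and whether some wells received more was not tested. The fold and rho rules were run on simulated counts, with changes larger than the fold limit planted in abundant genes only. Sparse genes such as Notch3 and Rbpj are not covered by that check. Named genes were members, counted pathway genes, the abundant ones of each role and the 5 most like genes per member or those leading a class. The members and lists were chosen with earlier results of these data known. Alternatives were other scalings, thinning, single plates, left-out cells, filters, folds and class limits. Some genes that the rule names are not reported here.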

Additional observations from a re-analysis of the deposited data

How the results depend on the processing

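No paired analysis was possible because there is 1 group and no result comes from a test. Of the alternatives tried for the values that answer a comparison, 225 stayed close to the value reported and 54 moved. The ratio of Krt10 medians went from 0.557 to 0.196 in ligand-high and from 1.63 to 4.55 in receptor-high cells with stray reads subtracted, and from 1.21 in target-high cells to 2 when thinned to 75000 counts, 1.82 with the classes cut at the highest 10% of cells and 2.80 with mean z scores. With z scores 12.8% of ligand-high cells were receptor-high (25.5% reported), and at the highest 10% of cells 5.26% of receptor-high cells were target-high (27.7%).

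The percent of genes tested that were higher in ligand-high, receptor-high and target-high cells (3.47%, 2.76% and 2.3%) was 6.85%, 9.99% and 5.7% per spike-in read, 16.9%, 13.7% and 12.4% on plate 1 only, 15.2%, 13.9% and 13.1% on plate 2 only, and 0.749%, 0.557% and 0.439% at 2-fold. The percent lower (4.51%, 4.41% and 4.15%) was 2.48%, 1.48% and 1.96% per spike-in read, 15.6%, 17.5% and 19.1% on plate 1, 17.2%, 16.7% and 17.9% on plate 2, 7%, 6.72% and 6.36% with the filter of 1 read, and 1.63%, 1.33% and 1.27% at 2-fold. Shares on 1 plate are larger by construction, since only that plate had to pass.

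Members counted as higher with Krt10 (0 reported) numbered 1 per spike-in read, 1 with stray reads subtracted, 1 when thinned and 2 on plate 2, and as higher with Krt14 (0) 1, 1, 1 and 2 under the same settings. Members lower with Krt10 (2) numbered 0 per spike-in read and 0 among cells without Krt10 above stray reads, a setting chosen after seeing the data. Members lower with Krt14 (0) numbered 1 when thinned, 3 on plate 2 and 1 without the 8 cells under 150000 counts. Pairs counted as higher (1) numbered 2 on plate 1 and 0 among cells without Krt10 above stray reads, and as lower (0) 1 when thinned and 5 on plate 2. In the highest Krt10 set 1 member was higher when thinned (2 reported) and 5 were lower on plate 2 (3). At 50 CPM, 3 members reached the limit in at least 50% of cells (6 at 10 CPM). Leaving out the highest cell of either set by Krt10, also chosen after seeing the data, put no member's ratio of means over all cells on the other side of 1. Counts of members and pairs on 1 plate can be larger by construction, since only that plate had to pass. The cause of the other moves was not tested. Depth limits Notch3, Rbpj, Nrarp and Dll1 most, whose medians were under 6 CPM, and stray reads limit any low value of Krt10 or Krt14.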
